A study of Mus musculus with 13 samples.

Results

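The 9 genes described here are 5 genes of the hepatic urea cycle and its entry step (Nags, Cps1, Otc, Ass1 and Asl) and 4 genes of glutamine and glutamate handling (Gls2, Glul, Oat and Slc1a2). They were picked by symbol from the 22048 genes of a whole-liver RNA-seq count table, where each symbol matched exactly 1 row, and all 9 passed the filter on low counts that left 13831 genes for testing. The 13 libraries came from mouse livers in 3 groups. The first group was 6 control livers that were not depleted of hepatic stellate cells (3 male, 3 female). The second was 4 livers depleted of these cells (1 male, 3 female). The third was 3 livers taken 72 h after partial hepatectomy from animals that were not depleted (2 male, 1 female). Stellate cells lie along the sinusoids, store vitamin A and wrap the endothelium as pericytes. Partial hepatectomy takes out some of the lobes and sets the rest growing. Strain, age, genotype, the agent that removed the stellate cells and the treatment of the controls are not given in the sources used here. The labels do not state that each library is a separate animal, so the p-values measure the spread between these samples.

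The liver clears ammonia in 2 places along the path of blood through the lobule. Hepatocytes around the portal vein make urea: NAGS supplies the activator of CPS1, CPS1 fixes ammonia into carbamoyl phosphate, OTC joins it to ornithine, and ASS1 and ASL build and split argininosuccinate. The liver glutaminase GLS2 works in the same cells and feeds glutamine nitrogen into the cycle. Hepatocytes in the last layers around the central vein take up what is left: glutamine synthetase (GLUL) fixes ammonia into glutamine, ornithine aminotransferase (OAT) passes the amino group of ornithine to 2-oxoglutarate, and SLC1A2 (GLT-1) carries glutamate into the cell. Wnt signals from the central vein hold this pericentral programme, and Glul is its textbook marker.

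The promoter sequences of the members that differed most between depleted and control livers are shown first, as the stretch of 250 bases before the start site listed by RefSeq (GRCm38.p6). RefSeq windows were matched by symbol for 6 of the 9 genes. No window in the set used here matched Cps1, Asl or Gls2. Each sequence reads 5′ to 3′ on the gene's own strand, and capitals mark CCAAT (the CCAAT box) or CTTTGA (the core of the TCF/LEF site of Wnt target genes) on either strand. Glul lies on the plus strand at chr1:153899679-153899928, Oat on the minus strand at chr7:132576399-132576648, Slc1a2 on the plus strand at chr2:102706188-102706437 and Otc on the plus strand at chrX:10252055-10252304.
Glul: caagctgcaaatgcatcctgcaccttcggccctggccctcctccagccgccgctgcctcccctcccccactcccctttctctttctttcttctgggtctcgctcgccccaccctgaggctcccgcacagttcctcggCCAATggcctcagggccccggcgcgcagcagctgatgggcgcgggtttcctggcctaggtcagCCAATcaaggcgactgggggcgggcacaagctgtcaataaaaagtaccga
Oat: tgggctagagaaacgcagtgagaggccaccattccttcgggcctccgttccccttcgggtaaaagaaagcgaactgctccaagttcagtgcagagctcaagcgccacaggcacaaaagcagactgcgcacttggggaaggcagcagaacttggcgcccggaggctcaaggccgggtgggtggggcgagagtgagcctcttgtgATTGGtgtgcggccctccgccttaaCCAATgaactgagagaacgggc
Slc1a2: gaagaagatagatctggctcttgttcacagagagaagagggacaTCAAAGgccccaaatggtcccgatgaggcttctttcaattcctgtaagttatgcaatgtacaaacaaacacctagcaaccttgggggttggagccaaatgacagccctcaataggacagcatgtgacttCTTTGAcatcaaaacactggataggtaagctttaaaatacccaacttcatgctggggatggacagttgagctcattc
Otc: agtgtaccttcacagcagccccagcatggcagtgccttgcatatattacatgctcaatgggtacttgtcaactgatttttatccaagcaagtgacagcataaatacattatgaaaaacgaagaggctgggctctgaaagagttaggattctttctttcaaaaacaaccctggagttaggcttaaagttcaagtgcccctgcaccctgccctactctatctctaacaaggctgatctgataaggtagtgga
The windows of Glul and Oat each held CCAAT 2 times, at 113 and 50 bases before the start in Glul and at 47 (opposite strand) and 22 bases before it in Oat. The Slc1a2 window held CTTTGA 2 times, at 206 (opposite strand) and 77 bases before the start. No CCAAT was found in the Slc1a2 window and no CTTTGA in those of Glul and Oat, so these letters were not shared by the 3 genes. CTTTGA also occurred in the Nags window, the Otc and Ass1 windows held neither motif, and TGACG (the CREB half-site) occurred in 0 of the 6. Among 32851 mouse windows of the same length, 33.8% held CCAAT, 13.8% CTTTGA and 17.8% TGACG, each counted on both strands. The Slc1a2 window ends at a start inside the gene, 47779 bases downstream of the gene's first base, where an exon of the deposited table also begins. A match is a description of letters, not of a bound site.

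In control livers the 9 genes spanned a wide range. Per kilobase of the exon length given in the deposited table (in CPM, the count per 1000000 counts of the library total after TMM scaling), Cps1 stood at 848 ± 182 (SD, n = 6) and Ass1 at 797 ± 194, and their ranges overlapped. Oat followed at 471 ± 312, then Glul at 322 ± 69.4, Otc at 149 ± 23.5, Gls2 at 131 ± 37.6 and Asl at 79.7 ± 18.9. The lowest were Nags at 21.1 ± 2.13 and Slc1a2 at 15.6 ± 2.34. Of the 8 steps in this order, those from Glul to Otc and from Asl to Nags separated genes whose ranges did not overlap. The deposited length joins all annotated exons (13133 bases for Slc1a2), and how much of it the livers transcribe was not measured. In depleted livers the order changed: Asl moved from place 7 to place 3 and Oat from place 3 to place 7, although each step between places 3 and 7 joined genes whose ranges overlapped. After hepatectomy Oat was again in place 3.

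The depletion label was checked with 18 stellate cell markers. All 18 passed the test as lower in depleted livers, as 15% of all genes did. Their summed level was 16.0, 16.0 and 19.3 CPM in depleted replicates 1 to 3 and 81.1 CPM in depleted replicate 4. It was 359 to 911 CPM in controls and 389 to 726 CPM after hepatectomy. Counts of 0 were found for 6 or 7 of the 18 in depleted replicates 1 to 3 and for none in depleted replicate 4. Libraries held 35360991 to 51008737 counts, and each of the 9 genes had at least 1797 counts in every library, so counting error is small beside the spread between livers. Hepatocyte markers (13 of 14 found in the table) summed to 102451 to 168996 CPM in controls, 104230 to 200441 in depleted and 175299 to 229262 in hepatectomised livers. By the test 1 was higher and 2 lower in depleted livers, where 18.9% of all genes were higher and 15% lower. After hepatectomy 4 were higher, where 6.06% of all genes were. Control replicate 6 and hepatectomised replicate 2 stood apart with the lowest sums of 13 endothelial markers (127 and 136 CPM, against 299.8 to 741 in the other 11 livers) and of 12 Kupffer cell markers (205 and 162 CPM, against 499 to 2977). In depleted livers 8 of the 12 Kupffer cell markers and 14 of 15 neutrophil and monocyte markers were higher, where 18.9% of all genes were. The exception among the latter, F10 (coagulation factor X), is a hepatocyte gene, and without it that list summed to 380 to 799 CPM against 6.36 to 18.1 in controls.

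The first comparison asked how these genes differ in livers depleted of stellate cells. The 3 pericentral genes fell most: Oat was 6.29-fold, Slc1a2 3.04-fold and Glul 2.55-fold lower than in controls. Among the periportal genes Otc, Ass1 and Gls2 also fell, by smaller steps, while Asl rose. By edgeR's quasi-likelihood test with Benjamini-Hochberg adjustment over all genes, 7 of the 9 genes passed at 0.05, 6 lower and 1 higher, against a background of 33.9% of all 13831 genes (15% lower and 18.9% higher). For 4 of the 9, Otc, Glul, Oat and Slc1a2, the depleted and control ranges did not overlap, as for 28.4% of all genes. The median log2 fold change was -0.79 over the 9 genes and -0.03 over all genes tested. Scaled to library size alone, the split of all calls went from 2614 higher and 2078 lower to 2884 and 1471, and the median of all genes to 0.08. The 6 lower calls and Asl stood under that scaling too. The count of 7 was 3 (Glul, Oat and Slc1a2) without depleted replicate 3, the lone male of its group, and 2 (Oat and Slc1a2) in a fit on females alone with 3 livers per group. It was 7 without control replicate 6 and 6 without depleted replicate 4.

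**Figure D1:**
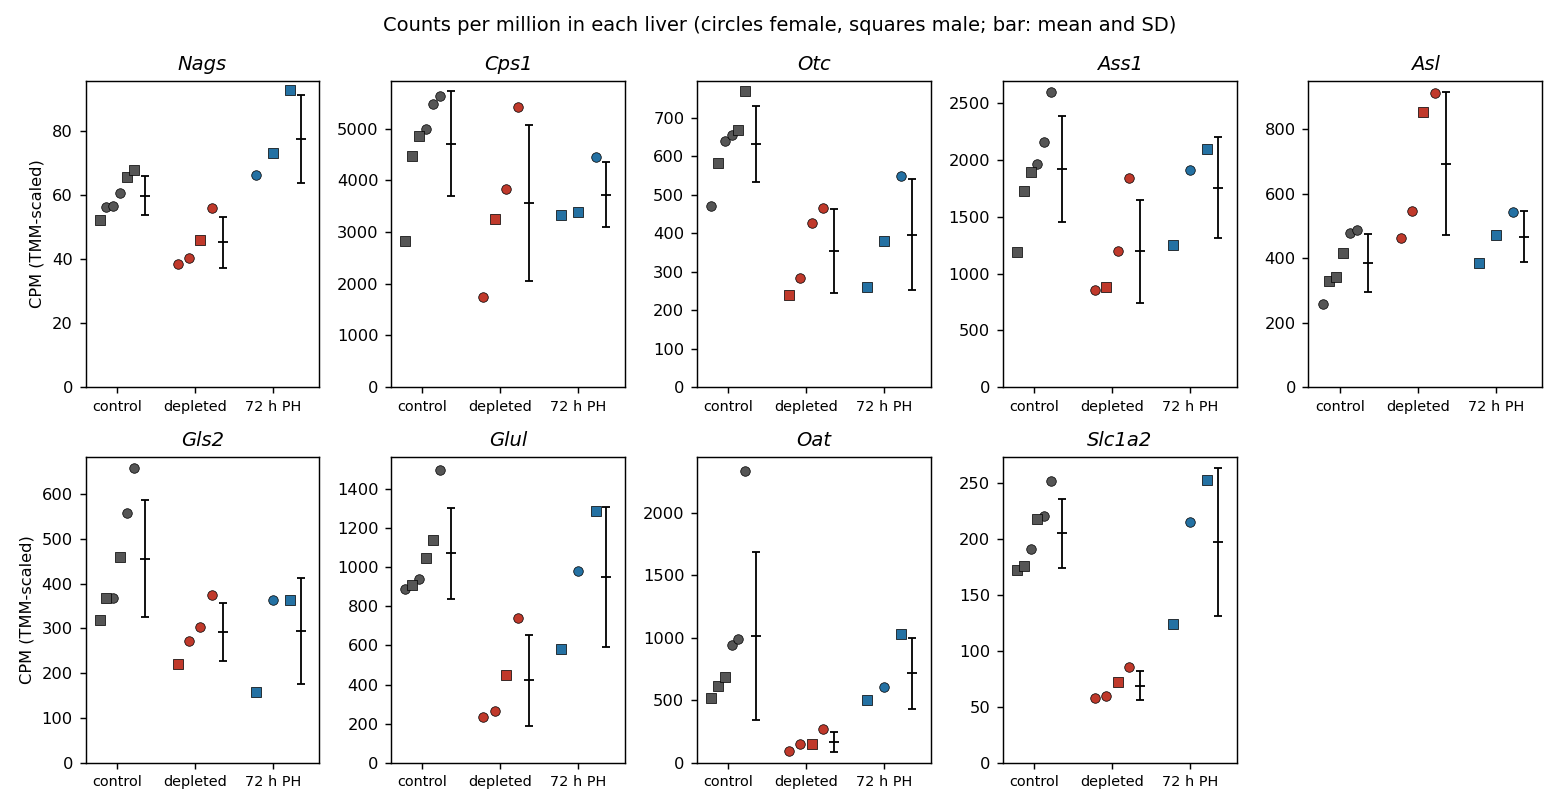
Level of each gene in CPM (vertical axis, from 0) in the 6 control, 4 depleted and 3 hepatectomised (72 h PH) livers. Points are single livers (circles female, squares male) and the bar beside them is the mean with the SD; the depleted livers lie below every control for Otc, Glul, Oat and Slc1a2.

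Oat, on chromosome 7 (132557478 to 132576398, GRCm38), encodes the mitochondrial enzyme that links ornithine to glutamate and proline. Its level in control replicates 1 to 6 was 688, 611, 987, 2334, 945 and 518 CPM. In depleted replicates 1 to 4 it was 91.3, 147, 153 and 273 CPM. Every depleted liver lay below every control, and control replicate 4 stood far above the other controls. The log2 fold change was -2.65 ± 0.44 (SE, edgeR adjusted p = 0.000642).

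Slc1a2, on chromosome 2 (102658659 to 102790784), encodes the glutamate carrier. Controls 1 to 6 held 176, 218, 191, 220, 251 and 172 CPM, a narrow band. Depleted replicates 1 to 4 held 57.5, 59.3, 72.5 and 85.3 CPM, all below it. Its log2 fold change of -1.60 ± 0.21 (SE) had the lowest adjusted p of the 9 genes (0.000102, edgeR). Oat and Slc1a2 kept their direction and their call under all 19 alternatives tried for this comparison.

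Glul, on chromosome 1 (153899944 to 153909723), encodes glutamine synthetase. It measured 911, 1049, 886, 1500, 939 and 1141 CPM in controls 1 to 6. Depleted replicates 1 to 4 had 263, 235, 450 and 742 CPM. The depleted livers were all lower but differed among themselves, with depleted replicate 4 closest to the controls. The log2 fold change was -1.35 ± 0.34 (SE, edgeR adjusted p = 0.00909), and among females alone it was -1.43 with an adjusted p of 0.0747.

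Within the depleted group, the level of these 3 genes and the residual stellate markers ran side by side. Depleted replicate 4, with the highest stellate marker sum, had the highest Glul, Oat and Slc1a2. Depleted replicates 1 and 2, with the lowest sums, had the lowest Glul and Slc1a2. With 4 livers this is a description, and the part of residual stellate cells in it was not tested. The other groups did not show the same order for all 3 genes. Hepatectomised replicate 2, with the lowest stellate sum of its group (389 CPM, against 611 and 726), had the highest Glul, Oat and Slc1a2. Control replicate 6, with the lowest control sum (359 CPM), had the lowest Oat and Slc1a2 of the controls but not the lowest Glul (1141 CPM). Depleted replicate 4 also had the highest sums of T cell markers (106 CPM, against 43.0 to 92.3 in the other depleted livers and 3.75 to 5.55 in controls), of Kupffer cell markers (2977 CPM, against 1661 to 2272) and of cycling markers (201 CPM, against 82.2 to 151). It had the lowest sums of hepatocyte (104230 CPM) and endothelial markers (474 CPM) of the depleted livers. In whole liver, fewer cells of a type and less RNA per cell cannot be told apart.

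**Figure D2:**
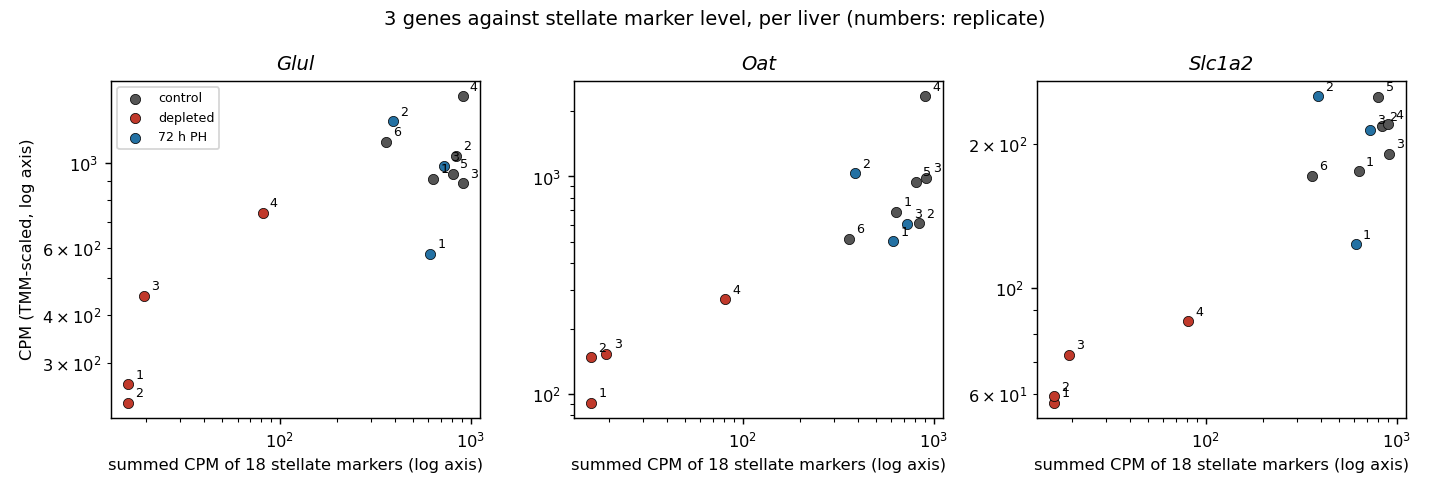
CPM of Glul, Oat and Slc1a2 (vertical, log axis) against the summed CPM of 18 stellate cell markers (horizontal, log axis) in each of the 13 livers, numbered by replicate. The depleted livers sit at the left, with depleted replicate 4 (81.1 CPM of markers) the highest of the 4 in every panel. They lie below every control, but in the Glul panel depleted replicate 4 (742 CPM) lies above hepatectomised replicate 1 (579 CPM). Hepatectomised replicate 2 has the lowest marker sum of its group and the highest level of each gene in it.

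Of the urea cycle enzymes, Otc and Ass1 were lower. Otc, on chromosome X (10252305 to 10321024), had 584, 670, 657, 471, 639 and 770 CPM in controls 1 to 6 and 427, 467, 241 and 283 CPM in depleted replicates 1 to 4. The ranges were apart only by the gap between 467 and 471 CPM. Its log2 fold change was -0.93 ± 0.24 (SE, edgeR adjusted p = 0.0101). It no longer passed without depleted replicate 3 (-0.75, adjusted p = 0.0748).

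Ass1, on chromosome 2 (31470207 to 31520672), makes argininosuccinate, the step that brings in the second nitrogen. Controls ran 1730, 1894, 2605, 1963, 2158 and 1194 CPM, and depleted livers 1203, 1840, 885 and 856 CPM. The groups overlapped through control replicate 6 and depleted replicate 2. The log2 fold change was -0.79 ± 0.24 (SE, edgeR adjusted p = 0.0207). Ass1 lost its call without control replicate 3 (-0.72, edgeR adjusted p = 0.0548), depleted replicate 1 (-0.76, 0.0524) or depleted replicate 3 (-0.74, 0.091). It also lost it without the sex covariate (-0.69, 0.0563).

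Asl, on chromosome 5 (130011258 to 130029247), acts directly after ASS1 and was the 1 gene of the 9 that rose. It had 415, 340, 487, 258, 480 and 330 CPM in controls and 546, 912, 855 and 462 CPM in depleted livers. Only depleted replicate 4 fell inside the control range. The log2 fold change was 0.84 ± 0.23 (SE, edgeR adjusted p = 0.0142), and it did not pass without depleted replicate 3 (0.62, adjusted p = 0.132).

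Cps1, on chromosome 1 (67123026 to 67231259), the most abundant urea cycle transcript by CPM, had 4471, 4859, 5470, 4995, 5634 and 2827 CPM in controls and 3826, 5421, 3247 and 1750 CPM in depleted livers. The depleted values straddled the control range from below it to near its top. The log2 fold change was -0.48 ± 0.26 (SE, edgeR adjusted p = 0.184), with a 95% interval of -1.04 to 0.09. It was -0.25 without depleted replicate 4 and -0.69 without depleted replicate 2, and did not pass in either. Nags, on chromosome 11 (102145513 to 102149477), had 52.1 to 67.9 CPM in controls and 38.5, 55.9, 45.8 and 40.4 CPM in depleted livers. Its log2 fold change of -0.37 ± 0.14 (SE) lay just outside the threshold (edgeR adjusted p = 0.0522). It passed with DESeq2 (0.0442), with limma-voom (0.0415), without the sex covariate (0.0328), without control replicate 2 (0.0301) and without depleted replicate 2 (0.0102).

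Gls2, on chromosome 10 (128194457 to 128210004), had 368, 459, 658, 369, 558 and 319 CPM in controls and 304, 375, 220 and 272 CPM in depleted livers. Depleted replicate 2 overlapped the controls and the other depleted livers lay below them. Its log2 fold change was -0.76 ± 0.24 (SE, edgeR adjusted p = 0.0258), the least stable of the 7 calls. It was lost under 8 of the 19 alternatives, among them the fit with the replicate number as a block (-0.79, adjusted p = 0.0656) and the fits without control replicate 3 (0.0709), control replicate 5 (0.0527) and depleted replicates 1 (0.0596), 3 (0.0961) and 4 (0.0579). With libraries left out, the log2 fold change of Gls2 ran from -0.87 to -0.65. Exons of Gls2 share 97 bases (2.79%) with Spryd4 on the other strand and those of Glul 116 bases (3.49%) with Teddm2. The strand setting of the counting is not given, so those stretches are uncertain.

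The summed CPM of the 5 urea cycle genes was 5186 to 9275 in controls, 3391 to 8696 in depleted and 5308 to 7516 in hepatectomised livers, so the sum overlapped across groups while single enzymes moved in both directions. Cps1 made up 54.5 to 64.5% of that sum in controls and 51.6 to 63.3% in depleted livers. Per length, the level of Cps1 was 1.48 to 3.69 times that of Glul in controls. In depleted replicates 1 to 3 it was 8.69, 13.8 and 4.32 times, above every control, and in depleted replicate 4 it was 1.41 times, below every control. Oat to Glul ran from 0.701 to 2.40 in controls and from 0.525 to 0.967 in depleted livers.

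The second comparison asked whether the same genes differ while the liver regrows, 72 h after partial hepatectomy. None of the 9 passed edgeR's test (0 of 9), against a background of 8.42% of all genes (6.06% higher and 2.36% lower). At an unadjusted p under 0.05 there were 2, Otc and Nags, a threshold that 24.3% of all genes passed. DESeq2, limma-voom and the fit with the replicate block also called 0 of the 9, whereas scaling to library size alone called 2, Otc and Gls2 (both lower). That scaling moved the median over all genes from -0.02 to -0.24 and the split of all calls from 838 higher and 326 lower to 626 and 1566. With the replicate block, 632 genes were called in place of 1164.

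Otc had 379, 262 and 549 CPM in hepatectomised replicates 1 to 3. The 2 males lay below every control and the female within the control range. The log2 fold change was -0.67 ± 0.25 (SE, edgeR adjusted p = 0.125). Nags had 92.7, 72.9 and 66.2 CPM, at 0.35 ± 0.14 (SE, edgeR adjusted p = 0.165). The first 2 livers lay above every control, and the female above every female control (56.2 to 60.5 CPM). The Nags value was 0.22 without hepatectomised replicate 1 and 0.13 with scaling to library size alone.

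The pericentral genes were spread widely after hepatectomy. Glul had 579, 1289 and 983 CPM, Oat 503, 1033 and 607 CPM, and Slc1a2 124, 252 and 215 CPM. Hepatectomised replicate 1 lay below every control for all 3 genes, while hepatectomised replicate 2 was the highest of its group for each and lay above every control for Slc1a2. Against controls of the same sex, Oat in hepatectomised replicate 2 lay above every male (518 to 688 CPM). In hepatectomised replicate 3 it lay below every female (945 to 2334 CPM). The log2 fold changes were -0.17 (95% interval -0.95 to 0.62) for Glul, -0.25 (-1.25 to 0.75) for Oat and -0.03 (-0.50 to 0.43) for Slc1a2.

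Hepatectomised replicate 2 was also the lowest of its group for Gls2 (158 CPM, against 364 and 362), Otc and Ass1 (1253, against 2103 and 1910 CPM), and Asl (384, against 474 and 543 CPM). It held the highest sum of 12 cycling markers, 701 CPM, against 247 and 115 in the other 2 and 25.5 to 73.9 in controls. Among controls, replicate 4 had the highest Glul and Oat, the lowest Otc and Asl, and the highest sum of cycling markers (73.9 CPM, against 25.5 to 41.9 in the other 5). Its Ass1 (1963 CPM) and Cps1 (4995 CPM) lay inside the range of the other controls. Hepatectomised replicate 1, with more cycling marker RNA than replicate 3, had lower Glul, Oat and Slc1a2 than replicate 3. The part of cycling cells in these values was not tested. Cps1 (3379, 3336 and 4448 CPM) showed a log2 fold change of -0.28 ± 0.28 (SE).

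**Figure D3:**
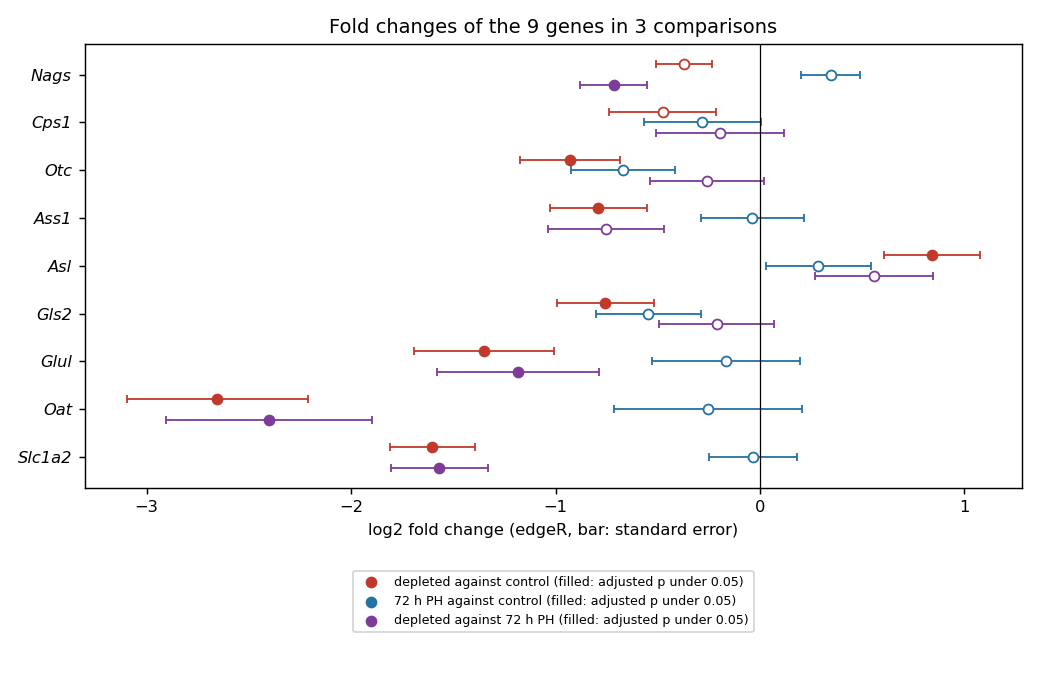
log2 fold change (horizontal axis) with its standard error for the 9 genes in 3 comparisons: depleted against control, 72 h after partial hepatectomy (PH) against control, and depleted against hepatectomised. Filled points passed edgeR's test at an adjusted p under 0.05: 7, 0 and 4 of the 9 genes. Of all genes, 33.9%, 8.42% and 23.4% passed.

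Depleted and hepatectomised livers were then compared directly, which tests whether the 2 groups differ from each other. In this comparison 4 of the 9 genes passed, all lower in depleted livers, against a background of 23.4% of all genes (10.1% lower). Oat was lower by 5.28-fold (log2 -2.40 ± 0.50, SE, adjusted p = 0.00508 by edgeR). Slc1a2 was lower by 2.97-fold at -1.57 ± 0.24 (SE, edgeR adjusted p = 0.000711). Both had ranges that did not overlap, as 34% of all genes did. Nags was lower at -0.72 ± 0.16 (SE, edgeR adjusted p = 0.00774) and its ranges were apart as well, 38.5 to 55.9 against 66.2 to 92.7 CPM. Glul was lower at -1.18 ± 0.40 (SE, edgeR adjusted p = 0.0485), where depleted replicate 4 at 742 CPM lay above hepatectomised replicate 1 at 579 CPM. The Glul call was lost without depleted replicate 1 (-1.03, edgeR adjusted p = 0.102), 2 (-1.01, 0.0876) or 3 (-1.26, 0.118). It was also lost without hepatectomised replicate 2 (adjusted p = 0.154) or 3 (0.133). With libraries left out, its log2 fold change ran from -1.56 to -0.90. A fit on these 2 groups alone called 2 genes, Oat and Slc1a2. Otc and Gls2 differed by -0.26 and -0.21 (log2), with 95% intervals of -0.86 to 0.34 and -0.82 to 0.40. Ass1 differed by -0.75 ± 0.28 (SE, edgeR adjusted p = 0.0731) and Asl by 0.56 ± 0.29 (SE, edgeR adjusted p = 0.185). The Ass1 difference passed without depleted replicate 2 (-0.96, edgeR adjusted p = 0.0205) and with DESeq2. Scaling to library size alone moved the median of all genes from -0.05 to 0.27 and the split of all calls from 1837 higher and 1399 lower to 3102 and 610. Otc, Gls2 and Cps1 then changed sign (0.05, 0.11 and 0.11), and the calls of Glul (-0.84, adjusted p = 0.183) and Nags (-0.40, adjusted p = 0.0741) were lost. Asl then passed as higher (0.87, adjusted p = 0.0284), so that 1 of the 9 was higher and 2 lower. The 2 comparisons with control share the same 6 controls.

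Because the groups differ in their share of males, the sexes were compared within the controls. None of the 9 genes passed edgeR's test between 3 male and 3 female controls, where 0.738% of 13005 genes did. At an unadjusted p under 0.05 there were 2, Oat and Ass1, against 13.2% of all genes. Oat was 518, 611 and 688 CPM in males and 945, 987 and 2334 CPM in females, with no overlap. Ass1 and Cps1 were also lower in every male than in every female control, so that 3 of the 9 genes had ranges apart, as did 20.8% of all genes. The log2 difference of Oat, male minus female, was -1.24 ± 0.36 (SE, edgeR adjusted p = 0.248), and DESeq2 called it (adjusted p = 0.00852). Without control replicate 4 it was -0.68. Compared with controls of the same sex, each of the 4 depleted livers was lower for Glul, Oat, Slc1a2, Otc, Ass1 and Nags. The depleted male differed from the male control mean by -1.97 for Oat, -1.19 for Glul and -1.48 for Otc (log2), and the 3 females by -3.83 to -2.25, -2.19 to -0.54 and -1.04 to -0.32. Whether the sexes differ in these changes was not tested.

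Genes around the urea cycle were read from lists, each set beside the shares of all 13831 genes called: 18.9% higher and 15% lower with depletion, and 6.06% higher and 2.36% lower after hepatectomy. Of 9 tested carriers and enzymes that serve the cycle, 3 were higher and 5 lower in depleted livers. Aqp9 (a hepatocyte channel for glycerol and urea) fell from 511 ± 78.7 (SD, n = 6) to 180 ± 22.7 CPM (SD, n = 4), and Car5a, which supplies bicarbonate to CPS1, fell by 1.00 on the log2 scale. The urea transporter Slc14a1 and the cationic amino acid carrier Slc7a1 were higher by 3.06 ± 0.38 and 1.39 ± 0.43 (log2 ± SE), from levels of only 0.224 and 1.37 CPM. After hepatectomy 1 of the 9 passed (8.42% of all genes did), Car5a at -0.91 ± 0.18 (SE, edgeR adjusted p = 0.0118).

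Of 19 other genes of glutamine, glutamate and ammonium, 4 were higher and 6 lower in depleted livers, the share of rises being close to the 18.9% of all genes. Gclc, of glutathione synthesis, and Slc38a3, the hepatocyte glutamine carrier, fell, at -1.51 and -0.97 on the log2 scale. Slc1a3, another glutamate carrier, went from 0.227 ± 0.109 to 6.94 ± 1.24 CPM, while Slc38a1 rose by 2.54 ± 0.40 (log2 ± SE). After hepatectomy 1 of 19 passed, no more than the 8.42% of all genes, the amino acid carrier Slc38a2 at 1.47 ± 0.22 (SE).

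Among 19 genes that use ornithine, proline, polyamines or arginine, 5 were higher and 6 lower in depleted livers, beside 18.9% and 15% of all genes. Agmat (agmatinase) fell from 191 ± 30.1 to 44.2 ± 11.3 CPM, and Aldh4a1, of proline breakdown, fell by 1.19 on the log2 scale. Aldh18a1, which starts proline and ornithine synthesis, rose by 1.43 ± 0.31 (log2 ± SE). Nos2, the inducible nitric oxide synthase that uses arginine, had 0 to 2 counts in each control, 23 to 353 in depleted livers and 5 to 37 after hepatectomy. It was the 1 gene of this list called after hepatectomy (edgeR adjusted p = 0.0492), where 8.42% of all genes were.

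For 26 genes of amino acid breakdown, 3 were higher and 9 lower with depletion, beside 18.9% and 15% of all genes. Bhmt, which remethylates homocysteine, went from 927 ± 212 to 3017 ± 1711 CPM and Sdsl rose by 1.04 (log2). Etnppl and Agxt, which detoxifies glyoxylate, fell, at -1.62 and -1.55 on the log2 scale. After hepatectomy Sdsl was higher by 1.27 (log2), and no other gene of the 26 passed, where 8.42% of all genes did.

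Zonated genes were read from a pericentral and a periportal list, beside 18.9% of all genes called higher and 15% lower with depletion. Of 25 pericentral and Wnt target genes, 19 were lower and 1 higher in depleted livers, with a median log2 fold change of -1.81. Cyp7a1 and Cyp2e1 fell most, at -3.70 and -3.24 on the log2 scale. The 1 higher gene, the receptor Axl, is also a macrophage gene. Of 23 periportal genes besides the members, 3 were higher and 6 lower, with a median of -0.10. Ctsc and Apoa4 rose by 1.79 and 1.32, and Hsd17b6 and Etnppl fell, at -3.02 and -1.62 (log2). After hepatectomy 3 pericentral genes were lower and 1 higher, beside 2.36% and 6.06% of all genes. The median log2 fold change of the list was -0.40. Its summed level, in which the most abundant genes weigh most, was 8448 to 16001 CPM. Every hepatectomised liver lay below the 16909 to 22421 CPM of the controls. Cyp7a1 and the Wnt feedback ligase Rnf43 were at -2.03 and -1.84, and Slc13a3 at 2.03 (log2). Of the 23 periportal genes 3 were then higher, Apoa4 by 3.12 and Apoc2 by 0.96 among them, and 0 lower.

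Among 20 regulators of hepatocyte amino acid genes, 2 were higher and 4 lower with depletion, where 33.9% of all genes were called. Cebpb and Stat3, both active in the acute phase, rose by 1.31 and 0.81, and Ppara and Foxa1 fell, at -1.45 and -1.12 (log2). After hepatectomy 3 were higher and 2 lower (6.06% and 2.36% of all genes), with Cebpb and Stat3 up by 2.18 and 1.17, and Cebpa and the glucocorticoid receptor gene Nr3c1 at -1.50 and -0.72 (log2).

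**Figure D4:**
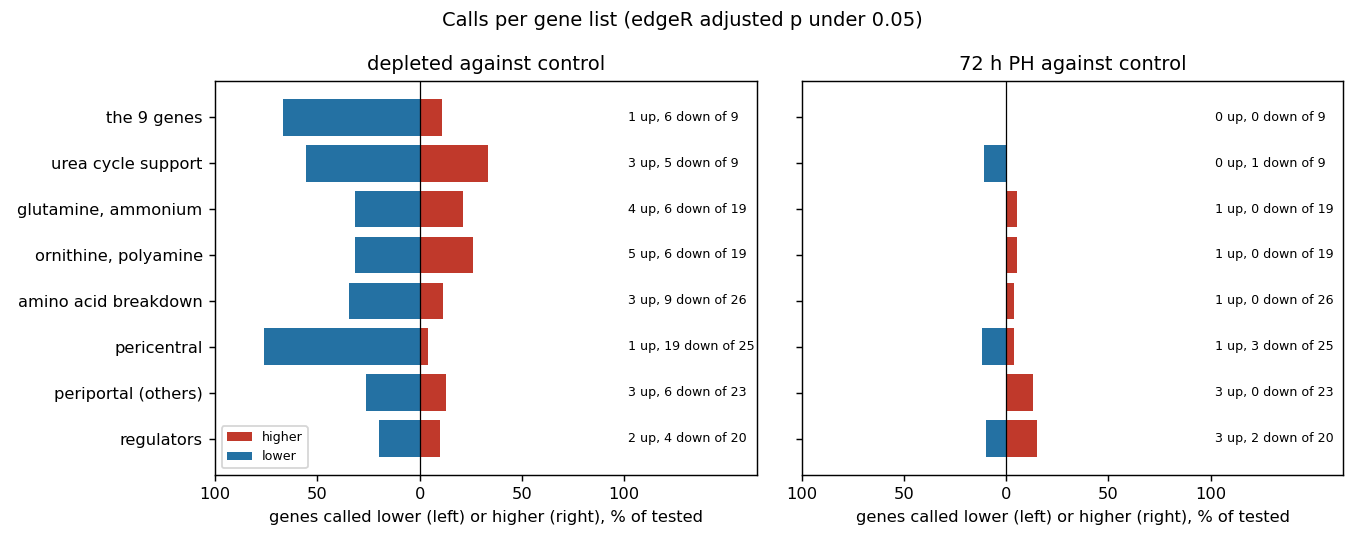
Share of tested genes in each list called lower (left) or higher (right) by edgeR, in percent, for depleted livers and for livers 72 h after partial hepatectomy (PH), each against control. The pericentral list has 19 of 25 genes lower with depletion, where 15% of all genes were. The 9 genes have 0 calls after hepatectomy, where 8.42% of all genes were called.

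The genes most like each member were taken as those with the smallest mean gap per liver, over the 13 libraries, between the log2 differences of the 2 genes from their own control means, among 10564 genes. For Glul these were Ces2e, Aldh1a1 and Pex6, at mean gaps of 0.26, 0.28 and 0.29. For Oat they were Lhpp (0.40), Agmat (0.43) and Lect2 (0.46), and for Slc1a2 they were Slc16a10, Abcb4 and Cyp4f14 (each 0.24). Cps1 was closest to Mut, Dennd5b and Sardh (each 0.15), Otc to Acad12, Il1rap and Ivd (0.16 to 0.18), and Ass1 to Gpd1l, Dennd5b and Hs3st3b1 (0.14 to 0.16). Asl was closest to Sfxn1 (0.18), Tob2 (0.22) and Glt1d1 (0.23). Nags was closest to Ippk (0.10) and Gls2 to E330009J07Rik (0.17).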

How the data were processed

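Whole-liver RNA of 13 mouse libraries was sequenced after TruSeq stranded mRNA preparation, per the labels' protocols. The authors deposited 1 table that gives, for each gene, its unnormalized count in every library and an exon length in bases. STAR 2.7.1a, SAMtools 1.15.1, featureCounts 1.6.4 and the build mm10 are named per the submitters' processing notes. Their strand and multi-mapping settings are not given in the sources used here. Of 22048 gene IDs, 21741 matched GENCODE M21 (GRCm38), which gave symbols and positions.

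Counts were tested with edgeR 4.0.16 in R 4.3.3 (filterByExpr, TMM, robust glmQLFit, glmQLFTest) in a model of group and sex over all 13 libraries, two-sided, with Benjamini-Hochberg adjustment over all tested genes and a threshold of 0.05. The standard error is the log2 fold change divided by the square root of F, and intervals use its t distribution. log2 CPM used a prior count of 2. The test was checked on simulated counts. Alternatives used DESeq2 1.42.0, limma 3.58.1, other scalings, filters, fits and left-out libraries. Libraries of a group differed by more than sampling noise, which does not show that they came from separate animals. Each library was counted as a replicate. Some genes of the lists are not reported here. Members, lists and tests were chosen with earlier results of these data known. Named genes are the 9 members, up to 2 rises and 2 falls per list and comparison by log2 fold change among calls, and the 3 genes most like each member with a mean log2 CPM of at least 1. Genes named as exceptions were chosen after their values were seen. Promoter windows came from RefSeq (GRCm38.p6).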

Additional observations from a re-analysis of the deposited data

Results flagged for a closer look

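Cps1 in control replicate 6, at 2827 CPM, was far below the other 5 controls (4471 to 5634 CPM). The gap to its nearest neighbour was 0.665 of the group's whole log2 CPM range, above the critical value of 0.625 for 6 samples. Of 18 groups tested this way, 1 passed, and chance gives 0.9. Control replicate 6 also had the lowest Ass1 (1194 CPM), Oat (518 CPM), Gls2 (319 CPM) and Slc1a2 (172 CPM) of the controls. It had the highest Otc (770 CPM) and pericentral list sum (22421 CPM), and Glul (1141 CPM) and Nags (65.5 CPM) exceeded only by 1 control each. It had the lowest sums of endothelial, Kupffer and stellate markers (127, 205 and 359 CPM). Albumin took 3.74% of its counts, against 6.83 to 11.7% in the other controls. The part of these library features in the Cps1 value was not tested.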

How the results depend on the processing

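Of the 7 genes called with depletion, Oat and Slc1a2 kept direction and call under all 19 alternatives, Glul under all but the fit on females alone. Females alone gave 2695 genes and 2 of the 9. Leaving out each library in turn gave 2960 to 4817 genes and 3 to 8 of the 9 with depletion, 483 to 1331 genes and 0 of the 9 after hepatectomy, 1709 to 3850 genes and 3 to 4 of the 9 between the treated groups, and 32 to 200 genes and 0 of the 9 between the sexes. The lowest counts came without depleted replicate 3 (2960 and 1709), hepatectomised replicate 2 (483) and, for the sexes, control replicate 1 (32). After hepatectomy the count was also 692 without control replicate 1 and 742 without control replicate 2. For the sexes it was 200 without control replicate 2, and 47, 50 and 63 without control replicates 3, 5 and 6. Library size alone gave 2192 genes and 2 of the 9 after hepatectomy, DESeq2 gave 1939 genes there and 449 genes and 1 of the 9 (Oat) between the sexes, and a fit on the 2 treated groups gave 2105 genes and 2 of the 9. Why these counts moved was not tested. Library size alone turned Cps1 (0.11), Otc (0.049) and Gls2 (0.11) between the treated groups. With libraries left out, log2 fold changes after hepatectomy ran from -0.29 to 0.10 for Ass1, -0.30 to 0.19 for Slc1a2, -0.47 to 0.081 for Glul and -0.75 to 0.14 for Oat. Between the treated groups they ran from -0.40 to 0.015 for Cps1, -0.44 to 0.090 for Gls2 and -0.43 to 0.066 for Otc, and between the sexes from -0.24 to 0.18 for Glul.

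With a replicate block in the fit, 3887 genes were called with depletion, 632 after hepatectomy and 3170 between the treated groups, and 6, 0 and 4 of the 9. Gls2 was the call lost (-0.79, adjusted p = 0.0656), and Glul and Slc1a2 turned after hepatectomy (0.020 and 0.0013). The labels do not tie numbers across groups, and several same-numbered livers differ in sex. With sex removed, as in the model, the mean correlation of same-numbered deviations was 0.12 for depleted and control, 0.16 for depleted and hepatectomised and -0.05 for hepatectomised and control livers, and in each case at least 1 pair was under 0.1. Without removing sex, the 3 hepatectomised and control pairs, which share their sex, ran from 0.11 to 0.52.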
